A study of Homo sapiens with 4 samples.

Results

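The genes described here are 9 transcription factor genes of the activator protein 1 (AP-1) system, picked by symbol from the 27106 genes of the table: FOS, FOSB, FOSL1 and FOSL2, JUN, JUNB and JUND, and the related leucine zipper genes ATF3 and MAFF. All 9 had a mean of at least 10 normalised reads and entered the test with 19389 other genes, 19398 in all. RNA was measured in THP-1, an established human monocytic cell line from an acute myeloid leukaemia, at day 5 after transfection with an antisense oligonucleotide (ASO), a short synthetic strand made to pair with 1 RNA and lower its level. The first group, called non-targeting here, received a control ASO (2 libraries), and the other, called knockdown, received an ASO that targets SGOL1-AS1, a long noncoding RNA (2 libraries). Both groups are the same unmodified line. Nothing in the labels says whether libraries of a group came from separate cultures, so the spread between these libraries may be technical. The p-values and SEs by limma rest on that spread, taken in part from other genes of like level. They do not measure a gene's own spread alone.

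AP-1 is a family of dimers. FOS proteins cannot pair with each other and bind DNA only together with a JUN protein, while JUN proteins also pair among themselves. The dimers bind the short sequence known as the TPA response element (TRE) or, with ATF partners, the cyclic AMP response element (CRE). In monocytes and macrophages, AP-1 is switched on within minutes by growth factors, stress and microbial products through MAP kinases, and it helps drive cytokine, protease and differentiation genes. ATF3 is a stress-induced zipper that often represses inflammatory genes, and MAFF is a small MAF protein, which lacks an activation domain and works with NFE2-type partners.

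Libraries held 41435922 to 51851314 reads recovered from the normalised values. The line's identity was checked with 12 monocyte and myeloid markers, all of which were in the table. They summed to 74493 and 72219 normalised reads with the control ASO and 71871 and 71818 with the targeting ASO. Of the 12, CD4, FCGR1A and TYROBP fell, by 0.35, 0.37 and 0.24 on the log2 scale (limma, adjusted p = 0.000193, 0.00118 and 0.026). LYZ and SPI1 were abundant among them, while CD14 and CD68 were low, with group means of 100.1 to 107.4 and 16.1 to 19.5. The target, SGO1-AS1 by its current symbol, was barely detected, at 24 and 21 reads with the control ASO and 12 and 17 with the targeting ASO (limma, log2 fold change -0.48, adjusted p = 0.555), so it does not check the labels. The knockdown columns carry a code the labels do not explain and were assigned to that group because no other group is labelled, and each direction below rests on this. They are numbered 1 and 2 in column order.

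Of the 9 genes, 7 fell and 0 rose (limma, adjusted p under 0.05 over all genes tested). Among all tested genes 4.25% were called, 3.4% as lower and 0.851% as higher. The 7 were JUNB, FOS, JUND, JUN, FOSB, ATF3 and FOSL2, and their mean levels in the knockdown were 71.2% to 88.5% of the non-targeting means. FOSL1 and MAFF did not pass. In 8 genes, all but FOSL1, both knockdown values lay below both non-targeting values, as in 25.1% of all tested genes, and in 0 of them both lay above, as in 21.6%. The median log2 fold change of the 9 was -0.41, against -0.01 over all tested genes. The count of lower genes was 4 without non-targeting library 1 or without knockdown library 1, 6 with edgeR (TMM), 3 with the same total in every library or after quantile normalization, and 2 with DESeq2. RNA was measured in bulk, so fewer cells of a type and less RNA per cell cannot be told apart.

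**Figure D1:**
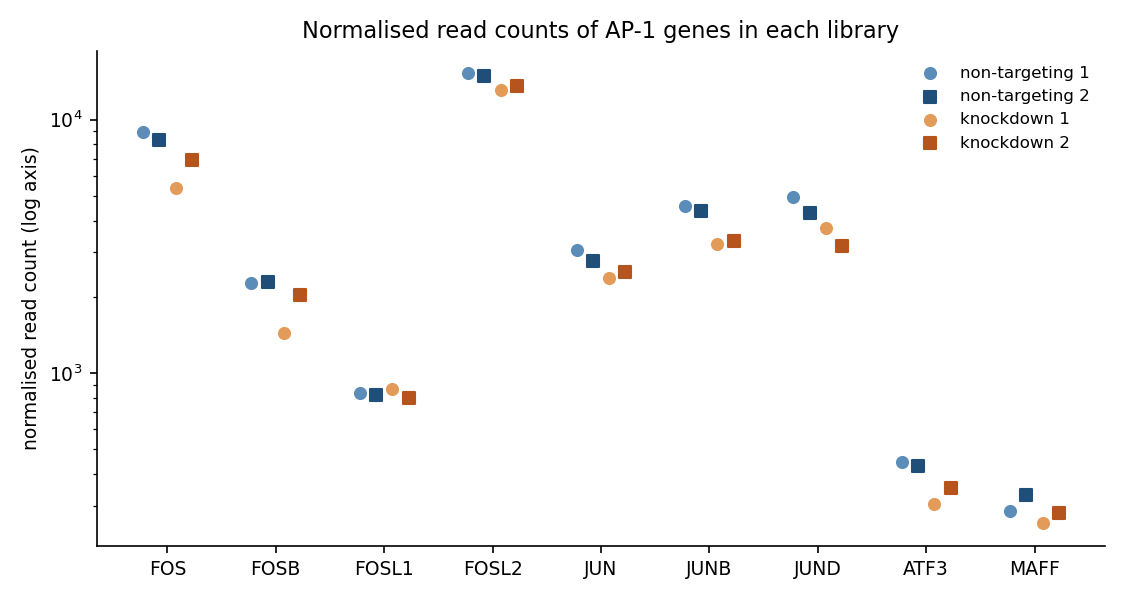
Normalised read count (log axis) of each of the 9 genes in each library, with 1 point per library and no error bars. In FOS, JUNB and ATF3 the knockdown points lie clearly below the non-targeting points, while in FOSL1 the 4 points lie together between 798 and 868.

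The start regions of 6 of these genes are shown because they hold, or lack, letters of the CRE, to which ATF-containing dimers and the CREB factors bind. They are the 150 bases just before the RefSeq start (GRCh38.p14), 5′ to 3′ on the gene's strand. FOS is chr14:75278678-75278827 (plus strand), FOSB chr19:45467846-45467995 (plus strand) and JUN chr1:58784048-58784197 (minus strand). JUNB is chr19:12791336-12791485 (plus strand), ATF3 chr1:212565257-212565406 (plus strand), by its upstream start, and MAFF chr22:38201844-38201993 (plus strand), also by its upstream start. Capitals mark TGACNTCA, TGACGT and TGACTCA on either strand.
FOS: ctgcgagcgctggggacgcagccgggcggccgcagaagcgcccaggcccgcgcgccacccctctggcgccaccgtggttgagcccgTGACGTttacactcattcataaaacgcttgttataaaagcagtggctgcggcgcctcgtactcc
FOSB: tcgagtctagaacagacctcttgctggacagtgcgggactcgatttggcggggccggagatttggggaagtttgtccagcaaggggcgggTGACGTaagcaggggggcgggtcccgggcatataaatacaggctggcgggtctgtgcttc
JUN: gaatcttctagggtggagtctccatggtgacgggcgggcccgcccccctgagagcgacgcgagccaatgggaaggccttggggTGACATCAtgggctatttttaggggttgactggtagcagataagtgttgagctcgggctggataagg
JUNB: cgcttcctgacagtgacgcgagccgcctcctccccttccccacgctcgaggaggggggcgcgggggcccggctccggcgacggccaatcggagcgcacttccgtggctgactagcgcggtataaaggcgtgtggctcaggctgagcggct
ATF3: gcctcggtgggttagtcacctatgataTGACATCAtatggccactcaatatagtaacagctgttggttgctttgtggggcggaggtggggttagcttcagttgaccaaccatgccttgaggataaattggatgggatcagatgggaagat
MAFF: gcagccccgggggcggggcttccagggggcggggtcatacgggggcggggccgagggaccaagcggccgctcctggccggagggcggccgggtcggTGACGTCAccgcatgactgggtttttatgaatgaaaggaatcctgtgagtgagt

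The RefSeq table held windows of 300 bases, 250 before and 50 after the start, for 8 of the 9 genes (10 windows), all but FOSL1. The full CRE, TGACGTCA, was in the windows of JUND, 200 bases before the start, and MAFF, 54 bases before it, and in 1.85% of all 35116 windows. Allowing any middle base (TGACNTCA, which includes the full CRE) added JUN and ATF3, both with TGACATCA, 67 and 123 bases before the start, and 7.72% of all windows held this pattern. The core TGACGT, which overlaps the full CRE, was in the windows of FOS, FOSB, FOSL2, JUND and MAFF, at 64, 60, 66, 200 and 54 bases before the start (JUND also at 87), and in 7.98% of all windows. The TRE letters TGACTCA were in 1 window, that of FOSL2, just after the start, against 4.95% of all windows. The CArG box, the letters bound by serum response factor, was in 0 of the 10 windows and in 1.29% of all. Sequence more than 250 bases before the start was not searched, so these genes may hold such a box further upstream. JUNB held none of these patterns in its window. ATF3 and MAFF each had a further window, at a downstream start, that held none of them. These are matches of letters, not measured binding, and FOS and FOSB, which fell, and MAFF, which did not pass, each hold the core.

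Among the FOS genes, FOS fell furthest. FOS (ENSG00000170345; chromosome 14, 75278774 to 75282230, plus strand, GRCh38), the classic immediate early partner of JUN, stood at 8914 and 8332 normalised reads in the non-targeting libraries and at 5358 and 6918 in the knockdown libraries 1 and 2. The groups did not overlap, and knockdown library 1 was the lowest of the 4. The means were 8623 ± 412 (SD, n = 2) and 6138 ± 1103, a log2 fold change of -0.50 ± 0.08 (SE; limma, adjusted p = 0.000259). Without knockdown library 1, which leaves 1 library in that group, the fold change was -0.32. With all libraries, the call ended by limma with robust empirical Bayes (adjusted p = 0.31) or with no mean-variance trend (0.389). It also ended with DESeq2 (adjusted p = 0.158).

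FOSB (ENSG00000125740; chromosome 19, 45467995 to 45475179, plus strand) encodes the paralog whose truncated splice form accumulates under lasting stimulation, and these counts per gene do not separate its forms. It stood at 2276 and 2287 in the non-targeting libraries and at 1439 and 2036 in the knockdown libraries. Its non-targeting values lay almost on each other, while its knockdown values differed by 0.50 on the log2 scale, the widest gap among the 9 genes. FOSB fell by 0.41 ± 0.10 (log2, SE; limma, adjusted p = 0.0135). That call rests on knockdown library 1, since without it the fold change was -0.16 (limma, adjusted p = 0.19), and without knockdown library 2 it was -0.665.

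FOSL2 (ENSG00000075426; chromosome 2, 28392448 to 28417312, plus strand), the FRA-2 protein's gene, had more reads than the other 8 genes. It stood at 15237 and 14912 with the control ASO and 13124 and 13546 with the targeting ASO. The groups did not overlap, and the difference was small: FOSL2 fell by 0.18 ± 0.05 (log2, SE; limma, adjusted p = 0.0374). Its call ended without non-targeting library 1 (adjusted p = 0.404), non-targeting library 2 (0.184) or knockdown library 1 (0.0836), and with edgeR and TMM scaling (0.0525).

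FOSL1 (ENSG00000175592; chromosome 11, 65892049 to 65900573, minus strand), the FRA-1 protein's gene, stood at 835 and 822 with the control ASO and 868 and 798 with the targeting ASO. The knockdown values lay on either side of the non-targeting values. Its log2 fold change was 0.01 ± 0.08 (SE; limma, adjusted p = 0.98), and it turned negative when non-targeting library 2 or knockdown library 1 was left out. Whether FOSL1 differs from FOS in its response was not tested.

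All 3 JUN genes fell. JUNB (ENSG00000171223; chromosome 19, 12791496 to 12793315, plus strand), which has a weaker transactivation domain than JUN and can restrain it, stood at 4575 and 4342 with the control ASO and 3238 and 3328 with the targeting ASO. The knockdown values lay within 0.04 of each other on the log2 scale and far below both non-targeting values. The means were 4458 ± 165 (SD, n = 2) and 3283 ± 63.9, a log2 fold change of -0.44 ± 0.06 (SE; limma, adjusted p = 3.21e-05), the smallest p of the 9 genes. JUNB shares 259 of its 1820 exonic bases (14.2%) with HOOK2 on the other strand, and whether the counting used strand is not given in the sources used here. HOOK2 itself, at 557 and 524 with the control and 562 and 479 with the targeting ASO, had a fold change of -0.06 (limma, adjusted p = 0.817). The other 8 genes share no exonic bases with another GENCODE gene.

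JUND (ENSG00000130522; chromosome 19, 18279760 to 18281622, minus strand), the most steadily expressed JUN in most tissues, stood at 4968 and 4267 with the control ASO and 3728 and 3171 with the targeting ASO. The groups did not overlap, and within each the libraries lay 0.22 and 0.23 apart on the log2 scale. JUND fell by 0.42 ± 0.07 (log2, SE; limma, adjusted p = 0.000921). It differed from FOS and FOSB in which knockdown library was lower: knockdown library 2 was the lower for JUND, and knockdown library 1 for those genes.

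JUN (ENSG00000177606; chromosome 1, 58780788 to 58784327, minus strand), the main target of the JUN N-terminal kinases, stood at 3058 and 2778 with the control ASO and 2369 and 2498 with the targeting ASO. The groups did not overlap. JUN fell by 0.26 ± 0.06 (log2, SE; limma, adjusted p = 0.0154), the smallest fall of the JUN genes. Without non-targeting library 1, the higher of its pair, the fold change was -0.19 and the call ended (limma, adjusted p = 0.356).

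ATF3 (ENSG00000162772; chromosome 1, 212565334 to 212620777, plus strand) stood at 446 and 431 with the control ASO and 305 and 351 with the targeting ASO. The non-targeting values were close together, and both knockdown values were lower. ATF3 fell by 0.42 ± 0.10 (log2, SE; limma, adjusted p = 0.0203). The call ended without non-targeting library 1 (adjusted p = 0.155), non-targeting library 2 (0.0627) or knockdown library 1 (0.1), with fold changes of -0.40, -0.44 and -0.32.

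MAFF (ENSG00000185022; chromosome 22, 38200767 to 38216511, plus strand) was the least abundant of the 9, at 285 and 331 with the control ASO and 256 and 282 with the targeting ASO. The groups did not overlap, but the gap between them was narrow, from 282 to 285. Its log2 fold change was -0.19 ± 0.12 (SE; limma, adjusted p = 0.42), and it did not pass under any of 16 other settings.

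**Figure D2:**
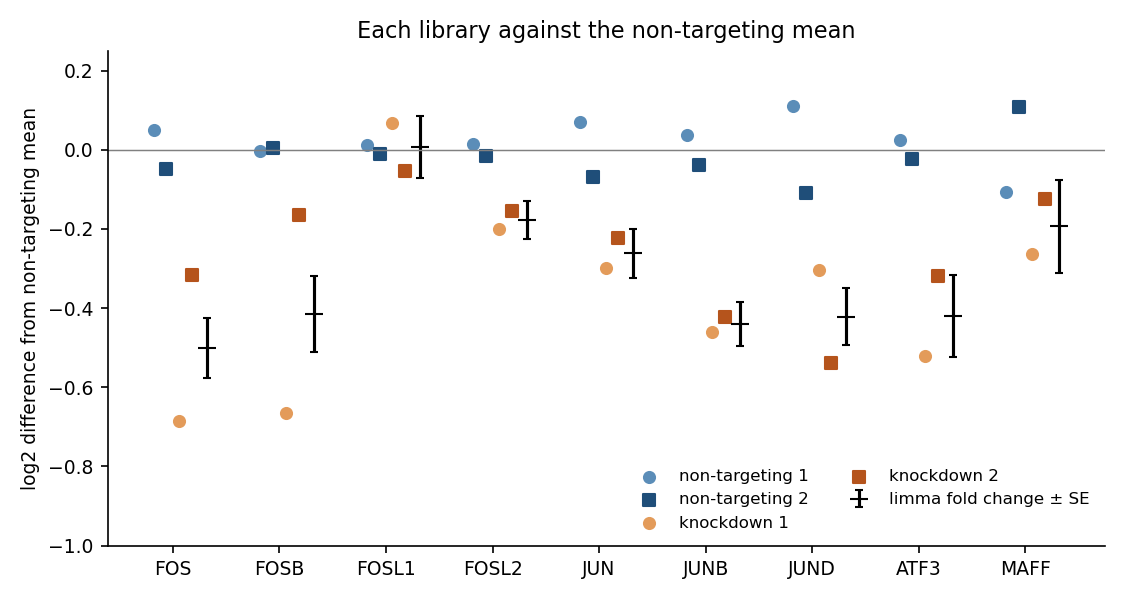
Log2 difference of each library from the non-targeting mean for the 9 genes (points), with the limma log2 fold change and its SE beside them (black). Knockdown library 1 reaches -0.69 in FOS and -0.67 in FOSB, where knockdown library 2 stands at -0.32 and -0.16, and JUNB has its knockdown points closest together.

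The knockdown libraries were not alike across the family. Knockdown library 1 was below knockdown library 2 in 7 of the 9 genes, in 68.9% of the 660 genes called lower and in 52.4% of all tested genes. In log2 units from the non-targeting mean, ATF3 stood at -0.52 and -0.32 in knockdown libraries 1 and 2, JUN at -0.30 and -0.22 and FOSL2 at -0.20 and -0.15. JUND, at -0.30 and -0.54, went the other way. Without knockdown library 2 all 7 called genes passed, and without non-targeting library 2 the number was 5.

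**Figure D3:**
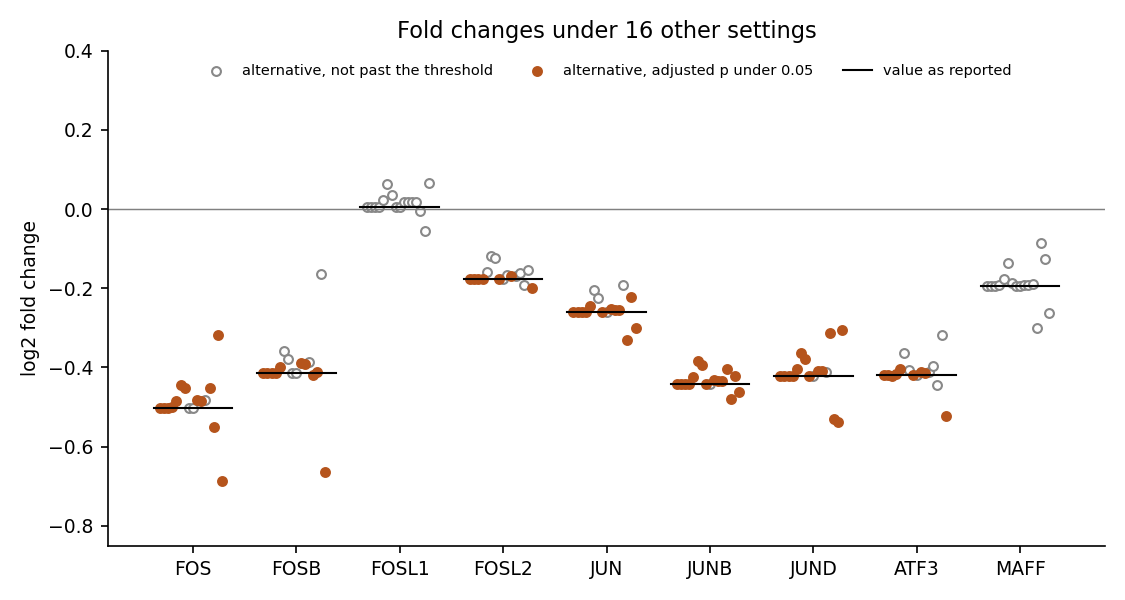
Log2 fold change of each of the 9 genes under 16 other settings (points, filled where the adjusted p was under 0.05) and as reported (black line). The JUNB points stay between -0.48 and -0.38 and 15 of 16 are filled, while the FOSB points spread from -0.665 to -0.16.

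JUNB passed the threshold in 15 of the 16 other settings, JUND in 14, FOS in 13, JUN in 12, FOSB in 10, ATF3 in 9 and FOSL2 in 7. In each of these 7 genes the fold change was negative in all 16. Scaling ended some of the calls. With the same total in every library, the call was kept by FOS (-0.44, adjusted p = 0.00781), JUNB (-0.38, 0.00123) and JUND (-0.36, 0.023), and lost by FOSB, FOSL2, JUN and ATF3 (adjusted p = 0.0826, 0.149, 0.0833 and 0.0732).

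Levels of different genes were compared per length, as RPKM, reads per kilobase of exon scaled to the library's total, which divides by total reads and not by the authors' size factors. In the non-targeting libraries FOS was at 56.4 and 52.7 RPKM, JUND at 54.6 and 47.0, JUNB at 51.5 and 48.9 and FOSL2 at 43.6 and 42.7. The range of JUND overlapped those of FOS and JUNB, both FOS values lay above both JUNB values, and FOSL2 lay below all 3. JUN followed at 17.7 and 16.1, then FOSL1 at 9.07 and 8.93 and FOSB at 8.39 and 8.44. ATF3, at 2.26 and 2.19, and MAFF, at 1.04 and 1.21, were the lowest. JUN itself was the least abundant JUN gene in this line.

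In the knockdown libraries the 4 abundant genes came closer together. FOS was at 35.5 and 45.2 RPKM, JUND at 43.0 and 36.0, FOSL2 at 39.4 and 40.05 and JUNB at 38.2 and 38.7. FOSL2 lay inside the ranges of FOS and JUND there. The remaining order held, with JUN at 14.4 and 14.9, FOSL1 at 9.88 and 8.95, FOSB at 5.56 and 7.76, ATF3 at 1.62 and 1.84 and MAFF at 0.979 and 1.06.

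**Figure D4:**
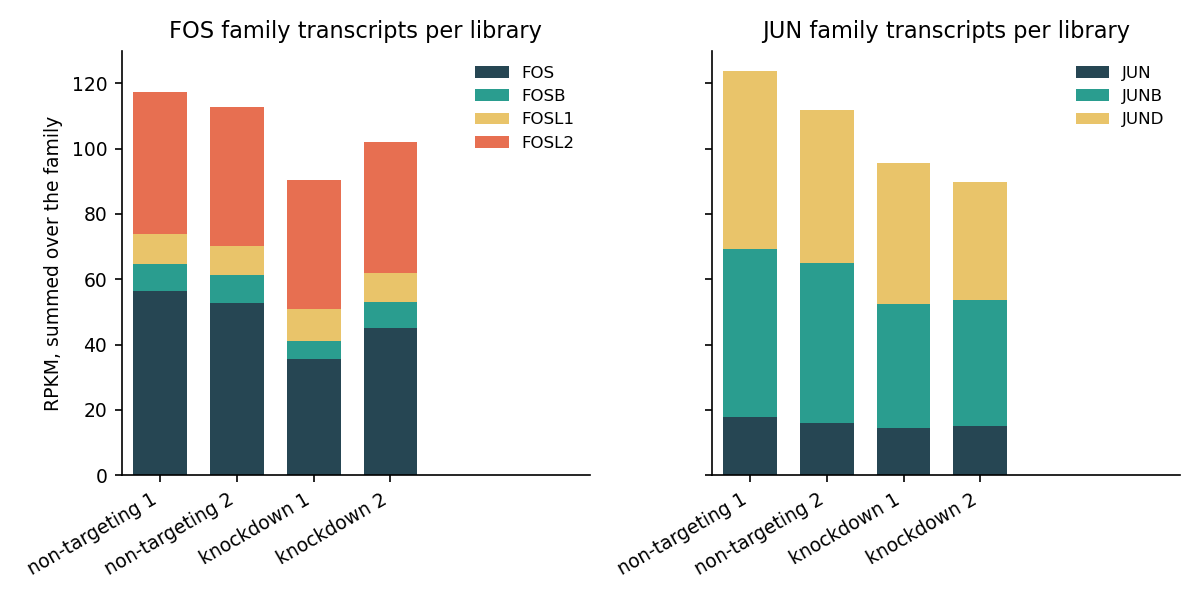
RPKM of the FOS genes (left) and JUN genes (right), stacked within each library; the bars have no error bars, since each is 1 library. The FOS sums are 117 and 113 with the control ASO and 90.4 and 102.0 with the targeting ASO, and the JUN sums are 124 and 112 against 95.5 and 89.6.

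Summed per length, both families were lower in both knockdown libraries. The FOS genes summed to 117 and 113 RPKM with the control ASO and 90.4 and 102.0 with the targeting ASO. FOS made up 48.0% and 46.7% of that sum and then 39.3% and 44.3%, while FOSL2 made up 37.1% and 37.9% and then 43.6% and 39.3%. FOSL1 went from 7.72% and 7.92% to 10.9% and 8.78%. In the JUN family the shares moved less. JUNB made up 41.6% and 43.7% and then 39.98% and 43.2%, and JUN 14.3% and 14.4% and then 15.04% and 16.7%. These shares describe RNA and were not tested.

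Most of the wider leucine zipper family did not pass. Of 17 other AP-1 and MAF-type zipper genes tested, 3 fell and 0 rose, beside 3.4% called lower and 0.851% called higher over all tested genes. The median log2 fold change of the 17 was -0.05. BATF2, an interferon-inducible partner of JUN, stood at 433 and 434 with the control ASO and 246 and 270 with the targeting ASO (limma, log2 fold change -0.75, adjusted p = 0.000128). NFE2L3, a cap-n-collar factor that pairs with small MAF proteins, fell by 0.40 from 657 and 680.2 to 518 and 495 (limma, adjusted p = 0.00723). BATF, BATF3, JDP2, ATF2 and ATF7, which also pair with JUN proteins, had fold changes of -0.16, 0.00, 0.06, 0.04 and 0.04 and did not pass. The small MAF genes MAFG and MAFK were at -0.08 and -0.06 (adjusted p = 0.426 and 0.679). Of 19 CREB, C/EBP and other ATF zipper genes 2 fell, XBP1 by 0.22 and CEBPB by 0.27 (limma, adjusted p = 0.0129 and 0.0484), and 0 rose. Of these 19 genes, 5 fell without knockdown library 1 and 0 after scaling to equal totals (limma; 8 had an unadjusted p under 0.05 before it).

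Lists of genes that act upstream of AP-1 held 1 call each. Of 21 MAP kinase pathway genes only RPS6KA4, the nuclear kinase MSK2, fell, by 0.22 (limma, adjusted p = 0.0308), beside 3.4% of all tested genes, and the median was -0.05. The count was 2 without knockdown library 1, 2 lower and 1 higher without knockdown library 2, and 0 without non-targeting library 1 or with edgeR (TMM), and 6 of the 21 had an unadjusted p under 0.05 by limma with all libraries. Next by p were MAP2K3 and MAP2K2, at -0.21 and -0.19 (limma, adjusted p = 0.0513 and 0.0533), and RPS6KA5, at 0.23 (0.12). The kinase gene MAPK3, known as ERK1, was at -0.10, the JNK genes MAPK8 and MAPK9 at -0.02 and 0.04, and the p38 gene MAPK14 at -0.01. Of 9 SRF, TCF and MEF2 genes, which act at the FOS and JUN promoters, only MRTFA, an SRF coactivator, fell, by 0.23 (limma, adjusted p = 0.00943), while SRF was at -0.09 (0.434). Without non-targeting library 1 or with the same total, 0 of the 9 passed (limma; 1 at an unadjusted p under 0.05 with all libraries). These are RNA levels, and the activity of the kinases was not measured. Of 16 genes for degradation of AP-1 proteins and mRNAs, only ZFP36, whose protein tristetraprolin binds AU-rich mRNAs, fell, by 0.32 (limma, adjusted p = 0.026), and the ubiquitin ligase genes FBXW7, COP1 and ITCH were between -0.01 and 0.02. The count there was 3 without knockdown library 1 and 0 without non-targeting library 1 (limma) or with DESeq2.

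Among known AP-1 target genes and the other immediate early genes the calls were all lower, beside 3.4% called lower and 0.851% called higher over all tested genes, and no difference between lists was tested. Of 28 tested target genes 7 fell and 0 rose, with a median of -0.16: LMNA, CCL2, VEGFA, SPP1, VIM, HMOX1 and CXCL8. SPP1, the secreted protein osteopontin, stood at 199.7 and 185 with the control ASO and 121 and 119 with the targeting ASO (limma, log2 fold change -0.68, adjusted p = 0.00608). HMOX1, a haem-degrading stress enzyme, fell by 0.44 from 387 and 375 to 263 and 299 (0.0192), and the lamin gene LMNA fell by 0.34 (0.000176). The proteases MMP9 and PLAU and the urokinase receptor gene PLAUR, at -0.16, -0.16 and -0.18, did not pass (adjusted p = 0.197, 0.293 and 0.146). Of 29 other immediate early genes 13 fell and 0 rose, with a median of -0.31. The zinc finger factor gene EGR3 fell by 1.48 and its paralog EGR1 fell by 1.22, the largest called falls of the list (limma, adjusted p = 6.84e-05 and 1.02e-07). IER2 fell by 0.40 from 5724 and 5771 to 4120 and 4585 (limma, adjusted p = 0.000127), and NR4A1 fell by 0.57 (0.0203). Without non-targeting library 2 the counts were 4 target and 7 immediate early genes, without non-targeting library 1 they were 5 and 8, and with the same total they were 4, with 1 higher, and 5. Some of these lists overlap in function with each other, and ZFP36 stands in 2 of them.

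**Figure D5:**
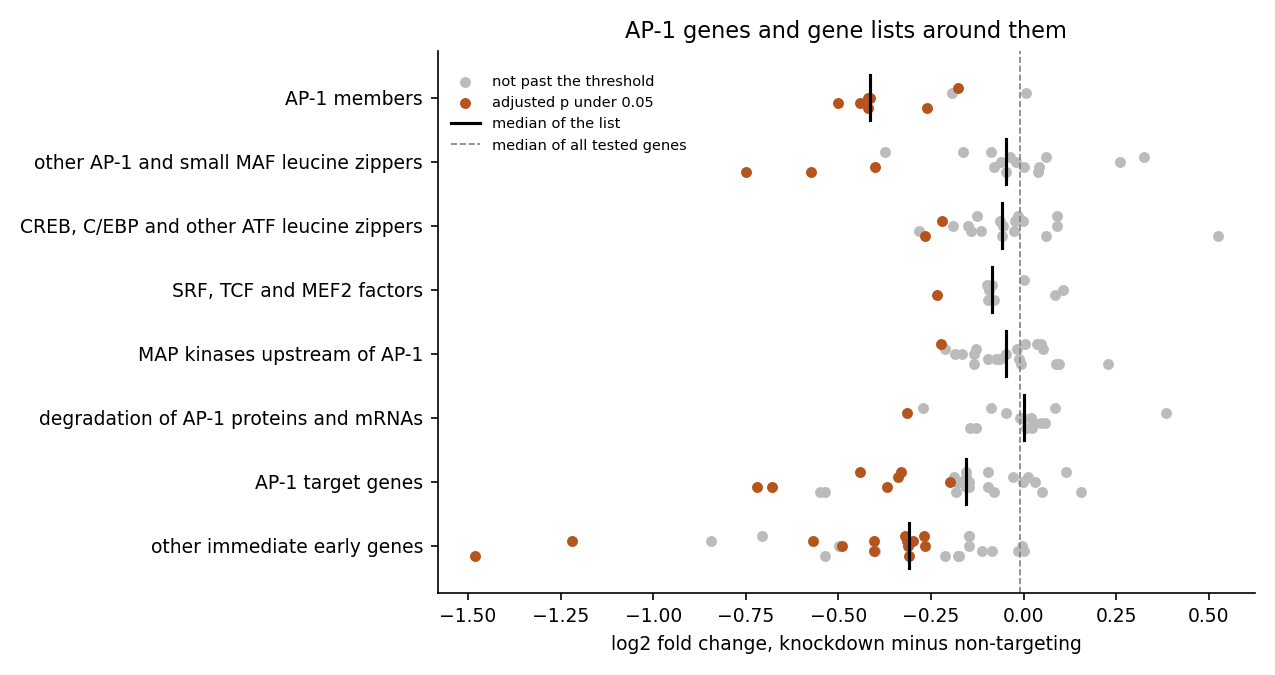
Log2 fold change (knockdown minus non-targeting) of each tested gene in the AP-1 group and in 7 lists around it, 1 point per gene, coloured where the adjusted p was under 0.05. The list medians (black) lie at -0.41 for the 9 AP-1 genes and -0.31 for other immediate early genes, and between -0.16 and 0.00 for the rest, beside -0.01 for all tested genes (dashed).

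Markers of other cell types were scarce apart from PAX5. Of 8 lymphocyte markers 5 were in the table. Their summed level was 4787 and 4739 with the control ASO and 2914 and 3578 with the targeting ASO. Almost all of it was PAX5, which fell by 0.58 (limma, adjusted p = 2.45e-05). CD79A stood at 53.6 to 66.2 normalised reads in the 4 libraries, and CD3D, CD3E and MS4A1 were not analysed here. The 4 epithelial and fibroblast markers in the table summed to 441 and 389 with the control ASO and 396 and 424 with the targeting ASO. ITGA2B, the platelet integrin and the 1 listed erythroid or megakaryocyte gene in the table, stood at 27.8 to 45.6. The part of PAX5-expressing cells in the AP-1 differences was not tested.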

How the data were processed

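RNA sequencing of 4 THP-1 libraries was analysed, from total RNA extracted with Qiagen RNeasy Plus Mini with NEBNext Ultra II libraries (per the labels' protocols). STAR 2.5.1b, DESeq2 and GRCh38 are named per the submitters' processing notes, while the counter, its annotation and its use of strand are not given in the sources used. What the authors deposited is a normalised signal, each gene's reads over a size factor of its library. All were whole multiples of 1 step per library, to within 0.000156 reads, which gave back the reads. No gene has fewer than 2 reads in knockdown library 1, while 2092 to 2375 do in the others, so genes lost from that library are not analysed here. No pair of libraries was a copy (chi-square per degree of freedom 4.92 and 5.47 within groups). Between groups it was 9.52 for the libraries numbered 2 and 10.3 for those numbered 1. It was 11.4 and 13.3 for the pairs of unlike number. Knockdown library 1 has its number from column order alone, so the libraries numbered 1 share no replicate number in the deposited columns. An effect shared by libraries of like number was not tested.

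Log2(value + 1) was fitted with limma 3.58.1 (R 4.3.3, mean-variance trend) over the 19398 genes whose mean reached 10, and p-values were adjusted by Benjamini-Hochberg (threshold 0.05). Fold changes on this scale understate low genes. Alternatives included edgeR 4.0.16 and DESeq2 1.42.0 on the recovered reads. The fit was checked on simulated counts. Symbols matched 26579 and GENCODE 29 (GRCh38) positions 26077 of 27106 genes; lengths are merged exons. The 9 genes and the lists were chosen with earlier results of these data known. Named are the 9 genes, the target, and from each list the 3 genes of smallest p and all called genes; other list members were named after their values were seen, as examples of genes that did not pass. RPS6KA1, TNF, MMP1 and other listed genes outside the table are not analysed here, and some genes that the rule names are not reported here.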

Additional observations from a re-analysis of the deposited data

How the results depend on the processing

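The count of called AP-1 genes, 7, was 3 with the same total in every library, 3 after quantile normalization, 2 with DESeq2, 3 at an adjusted p under 0.01, and 4 to 7 when a library was left out. Limma with no mean-variance trend called 0 of the 9 (5 at an unadjusted p under 0.05) and 0 genes overall (2337 unadjusted), where edgeR with TMM called 6 and 715. Over all genes the count, 825, was 528 with the same total, 476 after quantile normalization, 445 with DESeq2, 1293 and 383 at adjusted p under 0.1 and 0.01, and 422 to 1219 when a library was left out. Lower genes made up 80.0% of the calls, and 55.5% with the same total, 69.1% with the same median and 70.2% after quantile normalization. Robust empirical Bayes ended the calls of FOS (adjusted p = 0.31) and FOSB (0.527), with the same fold changes. DESeq2 ended those of FOS (0.158), FOSB (0.566), FOSL2 (0.0626), JUND (0.172) and ATF3 (0.117). FOSL1, at 0.01, was between -0.054 (without knockdown library 1) and 0.066 (without knockdown library 2), and at -0.0053 without non-targeting library 2. The counts for the other lists under these settings were chosen after seeing the data. The causes were not tested. With a library left out, the lone sample's spread is taken from the other group. No paired analysis was possible because the columns of the 2 groups share only replicate number 2: the other knockdown column carries a number that the labels do not hold.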

Other observations

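Of 8 heat shock genes tested, 0 passed by limma, edgeR (TMM) or DESeq2, where limma called 4.25% of all tested genes. A list this short would hold few calls at that share, so the 0 does not set it apart. With the same median in every library, 1 of the 8 fell (limma). With all libraries, 2 had an unadjusted p under 0.05 by limma (median log2 fold change -0.03). HSPB1 was at -0.30 (limma, adjusted p = 0.128), BAG3 at -0.18 (0.166) and HSPH1 at 0.08 (0.433). HSPB1 stood at 11596 and 8745 with the control ASO and 9700 and 6871 with the targeting ASO. In each group its library 2 was lower than its library 1, as in JUND and in ZFP36, which stood at 3040 and 2434 and at 2344 and 2038. The same order held in other listed genes, though not in all. Among them were SPI1 (10648 and 8874 with the control ASO, 9486 and 8191 with the targeting ASO) and CEBPB (2493 and 2169, then 2102 and 1778). The likeness of HSPB1, JUND and ZFP36 was noticed after the values were seen and was not tested.

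Of the 19389 other tested genes, those whose centred log2 values over the 4 libraries lay closest to JUNB were RHBDL1, a rhomboid-type protease gene (Euclidean distance 0.0197), the pseudogene MRPL3P1 (0.0272), which had 16 to 27 reads, and CKB, the brain-type creatine kinase (0.0302). CKB stood at 1235 and 1154 with the control ASO and 850 and 878 with the targeting ASO. With 4 libraries, many genes can share a profile.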
